A study of Mus musculus with 28 samples.

Results

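The 34 genes described here encode the constitutive 20S core of the proteasome (Psma1 to Psma7 and Psmb1 to Psmb7), the ATPases of its 19S cap (Psmc1 to Psmc6), the other 19S subunits listed in the table of members (Psmd1, Psmd2, Psmd3, Psmd4, Psmd6, Psmd7, Psmd8, Psmd11, Psmd12, Psmd13, Psmd14 and Adrm1), the assembly factor Pomp and the activator Psme4. The rule goes by symbol and uses no measured value, but the set was picked with earlier results of these data known. All 34 were found among the 35880 gene identifiers of the deposited table, and all 34 were among the 14887 genes tested. They lay on 14 chromosomes, with at most 7 on 1 chromosome (chromosome 11). Messenger RNA was sequenced from whole-lung homogenates of wild type male C57BL/6 mice aged 8 to 12 weeks. The mice received sham exposure, carbon black particles (CB, 10 mg/m3), the oxidant gas ozone (O3, 2 ppm) or both together (CB-O3), for 3 hours at a time. Lungs were taken after 1 exposure (day 1, 4 libraries in each group) or 4 exposures (day 4, 3 libraries in each group), which gave 8 groups and 28 libraries. Whether the libraries of a group came from separate mice is not stated, so the p-values below reflect the spread between libraries, part of which may be technical. Day and exposure number changed together and cannot be told apart, and the interval between the last exposure and tissue collection is not stated.

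The proteasome is the main protein-degrading machine of the cytosol and nucleus. Its barrel-shaped 20S core stacks rings of alpha subunits, which form the gate, around rings of beta subunits, of which Psmb5, Psmb6 and Psmb7 carry the active sites. The 19S cap binds proteins tagged with ubiquitin, removes the tag, and unfolds and threads the protein into the core with a ring of ATPases. In immune cells and after interferon signals, Psmb8, Psmb9 and Psmb10 replace the constitutive catalytic subunits to form the immunoproteasome, which favours peptides for antigen presentation. Transcription of the constitutive genes is known to be raised by NFE2L1 when proteasome capacity falls short, and part of the set is known to be a target of NFE2L2, the regulator of the antioxidant response.

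Promoter sequences are shown because these genes are known for transcriptional control in common, and because most of them rose after CB-O3. RefSeq promoter windows of the build GRCm38.p6 were matched by symbol to 28 of the 34 genes, and the 250 bases before each start site were searched on both strands. The core of the antioxidant response element, TGACNNNGC, stood in the windows of 5 of the 28 genes (17.9%), namely Adrm1, Psmb5, Psmb6, Psmc6 and Psmd12, against 11.5% of all genes in the table. The CCAAT box stood in 11 of 28 (39.3%), against 37.5% of all genes. The core of the interferon response element stood in 2 of 28 (7.14%, all genes 3.46%), Psmb3 and Psmd4. A match describes letters only and shows no binding. In the sequences below, printed from 5′ to 3′ on the gene's own strand, capitals mark matches to any of these motifs. The first 4 hold the antioxidant response core: Psmb5 (chr14:54617996-54618245, minus strand, match from 47 to 39 bases before the start), Psmb6 (chr11:70525107-70525356, plus strand, 9 to 1 bases before), Adrm1 (chr2:180171338-180171587, plus strand, 162 to 154 bases before, with a CCAAT box after it) and Psmd12 (chr11:107479278-107479527, plus strand, 247 to 239 bases before, on the opposite strand). Psmd14 (chr2:61711444-61711693, plus strand) is shown as the member with the largest rise after O3, and Psmb9 (chr17:34187331-34187580, minus strand) as the immunoproteasome gene with the largest fall. Both hold only a CCAAT box, on the opposite strand.
Psmb5: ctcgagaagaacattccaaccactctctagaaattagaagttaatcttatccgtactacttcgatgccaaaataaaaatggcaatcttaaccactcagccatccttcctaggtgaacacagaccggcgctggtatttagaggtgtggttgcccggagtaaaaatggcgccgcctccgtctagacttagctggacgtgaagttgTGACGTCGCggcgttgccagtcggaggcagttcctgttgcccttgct
Psmb6: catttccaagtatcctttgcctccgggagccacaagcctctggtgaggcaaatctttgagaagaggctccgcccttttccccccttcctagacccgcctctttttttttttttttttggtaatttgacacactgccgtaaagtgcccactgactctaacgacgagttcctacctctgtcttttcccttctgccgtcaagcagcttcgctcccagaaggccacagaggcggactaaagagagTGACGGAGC
Adrm1: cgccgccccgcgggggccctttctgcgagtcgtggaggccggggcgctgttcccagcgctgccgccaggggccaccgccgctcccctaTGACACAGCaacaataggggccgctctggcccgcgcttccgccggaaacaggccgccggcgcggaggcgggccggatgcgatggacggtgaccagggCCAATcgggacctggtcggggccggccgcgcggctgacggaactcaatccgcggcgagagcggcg
Psmd12: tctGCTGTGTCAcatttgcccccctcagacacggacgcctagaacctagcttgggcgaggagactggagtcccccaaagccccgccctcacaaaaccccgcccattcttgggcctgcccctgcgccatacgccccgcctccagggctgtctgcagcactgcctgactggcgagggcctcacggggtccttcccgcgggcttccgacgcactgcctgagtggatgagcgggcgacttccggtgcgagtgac
Psmd14: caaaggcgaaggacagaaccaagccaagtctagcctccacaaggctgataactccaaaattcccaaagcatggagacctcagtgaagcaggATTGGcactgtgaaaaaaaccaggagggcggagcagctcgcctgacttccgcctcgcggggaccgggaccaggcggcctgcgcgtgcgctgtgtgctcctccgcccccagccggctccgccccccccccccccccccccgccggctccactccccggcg
Psmb9: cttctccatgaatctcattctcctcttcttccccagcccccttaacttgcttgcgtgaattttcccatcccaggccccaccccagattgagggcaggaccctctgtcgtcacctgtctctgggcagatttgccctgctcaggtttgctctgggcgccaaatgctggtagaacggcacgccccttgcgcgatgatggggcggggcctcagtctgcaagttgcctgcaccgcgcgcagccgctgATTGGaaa

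The libraries had a median total of 7.19 M estimated counts (lowest 5.14 M, highest 9.72 M), and the lowest value of any member in any library was 161 counts, of Psmd6. Levels are CPM, counts scaled to library size, after TMM normalization, and log2 values of library pairs within a group correlated across genes with Pearson's r from 0.943 to 0.985. The lung markers Sftpc, Sftpb, Sftpa1, Ager, Scgb1a1, Foxj1, Cldn18, Cldn5 and Pecam1 were detected in all 28 libraries. CB day 4 replicate 1, the library with the lowest total, stood apart. Over 3512 genes at the level range of the members, the SD of its log2(CPM + 1) deviations from its group mean was 0.305, against 0.0872 to 0.25 in the other libraries. Skeletal muscle markers summed to 1353 CPM in sham day 1 replicate 2, 591 CPM in O3 day 1 replicate 2, 610 CPM in CB-O3 day 4 replicate 3 and 318 CPM in CB day 4 replicate 3, and to at most 26.5 CPM in the other libraries. Each of these libraries was among those left out in turn. A further fit left out sham day 1 replicate 2 and O3 day 1 replicate 2 together. Named pseudogenes of Psmb5, Psmb6 and Psmb7 together held at most 12 counts each over all libraries, but reads shared with such copies were divided by estimate before deposit.

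In sham lungs, levels per kilobase of mRNA were highest for core subunits and lowest for Psme4. Psma6, an alpha-ring subunit, stood at 91.2 ± 7.05 CPM per kilobase (SD, n = 7 sham libraries of both days), and Psme4, which encodes the alternative cap PA200, at 13.2 ± 1.37. The median of the 7 alpha-ring genes was 72.6 CPM per kilobase, that of the 3 catalytic genes 79.8 and that of the 4 other beta-ring genes 72.6. The 6 ATPases had a median of 54.2, the 4 base subunits without ATPase activity 51.4 and the 8 lid genes 39.1, with Psmd12 lowest of them at 27.9 ± 0.86. The ranks rest on the annotated transcript lengths and were not tested. Per kilobase of all annotated exons merged, the ATPase gene Psmc1 ranked 1 and Psma6 ranked 2. By that measure Psmb6 moved from rank 3 to 9. Psmd12 moved from 33 to 24, above the lid gene Psmd11 at 32, and Psme4 stayed lowest.

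The 34 genes together had a higher summed level, in CPM after TMM normalization, after O3 and after CB-O3 than after sham. In CPM, the summed level of the 34 genes was 2782, 2761, 2903 and 2802 in the sham libraries of day 1, and 3192, 3148, 3144 and 3511 after O3. After CB-O3 it was 3325, 3521, 3874 and 3587, and after CB 2623, 2830, 2654 and 2752. The O3 and CB-O3 libraries of day 1 all lay above the sham libraries, and the CB libraries overlapped with them. At day 4 the sums were 2893, 2740 and 2947 CPM after sham, 3061, 3280 and 3331 after O3, 3274, 4029 and 3813 after CB-O3, and 2733, 2550 and 2800 after CB. Again all O3 and CB-O3 libraries exceeded the sham libraries, and within CB-O3 replicate 1 was the lowest. A homogenate averages over all cells of the lung, so fewer cells of a type and less RNA per cell cannot be told apart, and the same holds for more.

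**Figure D1:**
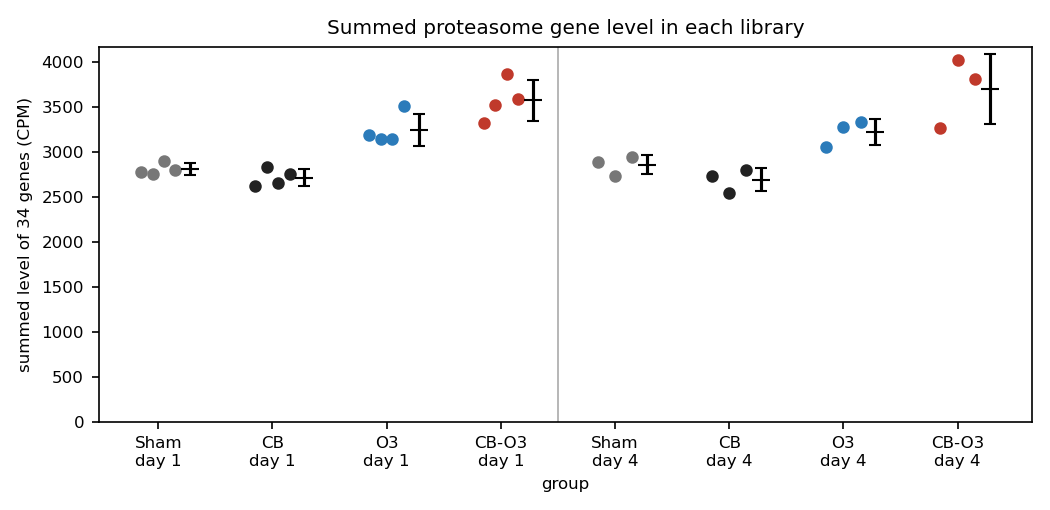
Summed level of the 34 proteasome genes in each library (vertical axis, CPM, starting at 0) for the 8 groups (horizontal axis), with day 1 on the left and day 4 on the right; each point is a library, and the bar beside the points is the group mean ± SD. Sham libraries lie between 2740 and 2947 CPM, and all O3 and CB-O3 libraries lie above them, from 3061 to 4029 CPM.

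Counted gene by gene with edgeR's quasi-likelihood F test (Benjamini-Hochberg adjusted p under 0.05 over all genes tested), 12 of the 34 genes rose after O3 at day 1 and 8 at day 4, and none fell. Over all genes tested, 6.81% rose and 4.63% fell at day 1, and 11.7% rose and 9.07% fell at day 4. After CB-O3, 27 of the 34 rose at day 1, where 10.1% of all genes rose and 9.09% fell, and 26 at day 4, where 17.7% rose and 16.3% fell. Again no member fell. Among the 3512 genes at the members' own level range, the shares that rose were 7.86% and 12% after O3 and 10.9% and 15.9% after CB-O3, for day 1 and day 4. The median log2 difference from sham over the 34 genes was 0.22 (range -0.10 to 0.48) after O3 and 0.35 (0.18 to 0.60) after CB-O3 at day 1. At day 4 it was 0.19 (-0.14 to 0.70) after O3 and 0.37 (0.04 to 0.67) after CB-O3, while the median over all genes tested lay between -0.01 and 0.01 in each of these comparisons. Comparisons of the same day share their sham libraries. The libraries of the 2 groups did not overlap, with the exposed group higher, for 22 members after O3 at day 1 (12% of all genes), 19 at day 4 (22.5%), 28 after CB-O3 at day 1 (12%) and 24 at day 4 (20.7%).

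The counts after O3 were the less firm. At day 1 the count was 7 without sham replicate 1, 7 without sham replicate 4, 5 without O3 replicate 4 and 7 without the sham and O3 libraries with muscle transcripts. At day 4 it was 5 without sham replicate 2, without sham replicate 3 or without O3 replicate 3. After CB-O3, leaving out 1 library gave 18 to 27 at day 1 and 20 to 30 at day 4, but only 12 members passed at day 4 when the fit held the compared groups alone. Of the 77 results past the threshold, 36 stayed past it in every alternative fit. After O3 at day 1, Psmd3, Psma5, Psmd6, Psmd11 and Adrm1 lost their calls in 12, 8, 8, 8 and 7 of 16 fits. After CB-O3 at day 1, Psmc2, Psmd3, Psma1 and Psma3 lost theirs in 14, 11, 10 and 9 of 16. Psmc6, Psma6 and Psmd2 lost theirs there in 9, 8 and 7 of 16. At day 4, Psmc6 lost its call after O3 in 7 of 13 fits, and Psmb2 its call after CB-O3 in 8 of 13.

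**Figure D2:**
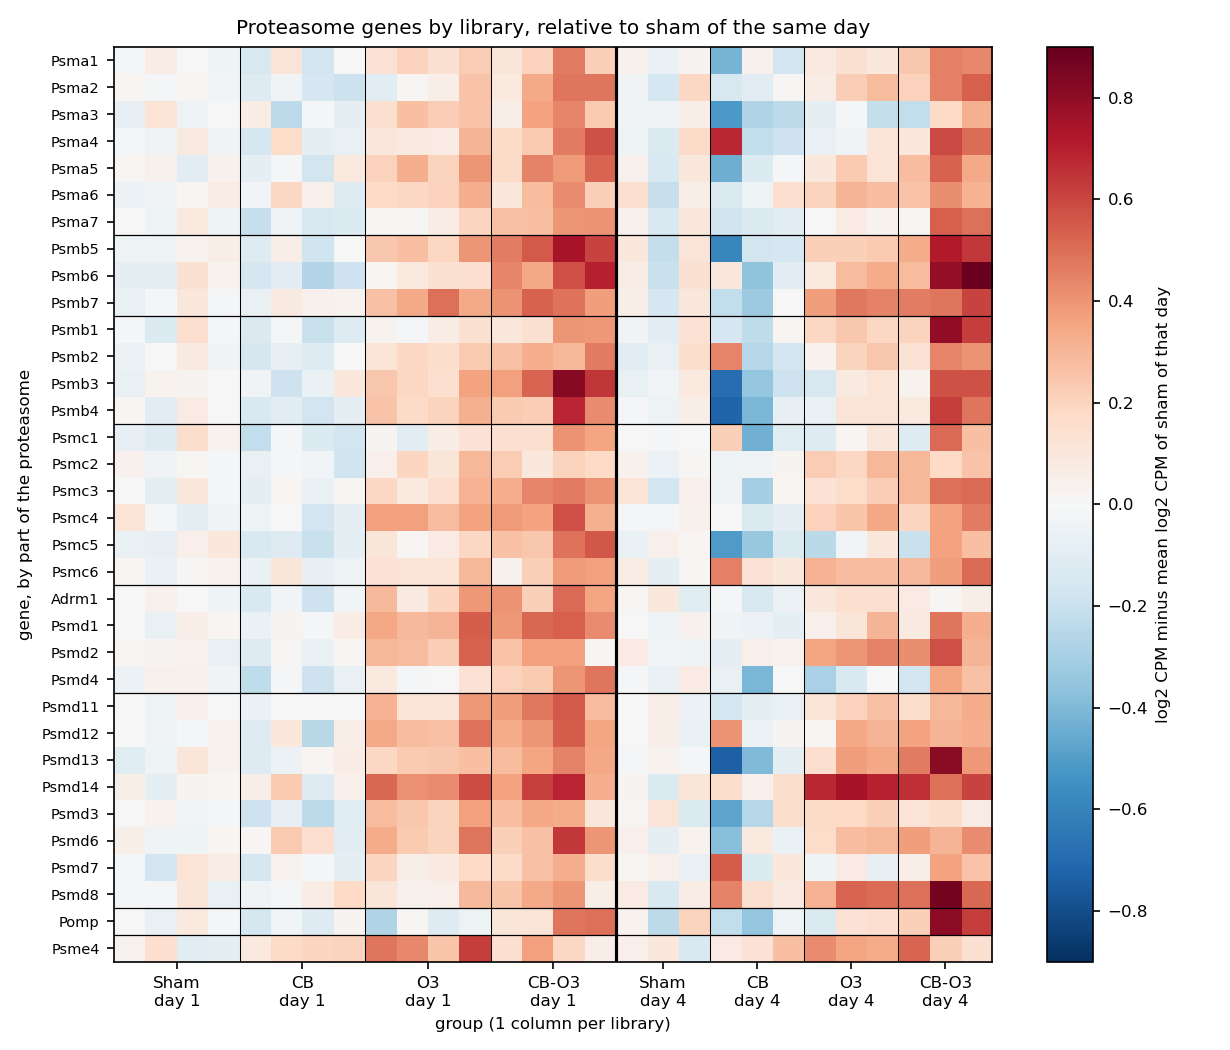
Log2 CPM of each gene minus its mean log2 CPM in the sham libraries of the same day (colour) for the 34 genes (rows, grouped by part of the proteasome) in the 28 libraries (columns, grouped by exposure and day). O3 and CB-O3 columns are mostly above sham at both days, and CB day 4 replicate 1 mixes strongly higher and strongly lower genes.

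All 3 catalytic subunits rose after CB-O3 at both days, by 1.37- to 1.59-fold. The shares of all genes that rose after CB-O3 were 10.1% at day 1 and 17.7% at day 4. Psmb5, which carries the chymotrypsin-like activity, stood at 55.7, 55.8, 58.9 and 59.9 CPM after sham at day 1, at 68.2, 69.4, 65.3 and 75.8 after O3 and at 79.0, 84.6, 96.4 and 87.6 after CB-O3. These 3 groups did not overlap, with O3 above sham and CB-O3 above O3. The log2 difference from sham was 0.27 (SE 0.10, adjusted p = 0.0656) after O3 and 0.59 (SE 0.10, adjusted p = 0.00011) after CB-O3. On day 4 Psmb5 stood at 68.9, 55.6 and 69.9 CPM after sham, 75.0, 75.0 and 75.7 after O3 and 81.1, 106 and 100.3 after CB-O3, with log2 differences of 0.21 (SE 0.11, adjusted p = 0.187) and 0.56 (SE 0.11, adjusted p = 0.000332). Here too the groups did not overlap, but the difference after O3 did not pass the threshold at either day. Psmb6, the caspase-like subunit, stood at 63.1, 63.5, 74.0 and 68.8 CPM after sham, 68.2, 71.4, 73.9 and 74.6 after O3 and 91.3, 85.8, 101 and 109 after CB-O3 at day 1. Its day 4 values were 76.2, 63.3 and 80.0 CPM after sham, 77.5, 88.8 and 91.7 after O3 and 88.7, 126 and 135 after CB-O3. The O3 libraries overlapped with sham at both days, and the CB-O3 libraries did not. The log2 difference of Psmb6 was 0.52 (SE 0.11, adjusted p = 0.00174) after CB-O3 at day 1 and 0.67 (SE 0.13, adjusted p = 0.000253) at day 4, against 0.10 (SE 0.11, adjusted p = 0.652) and 0.23 (SE 0.13, adjusted p = 0.217) after O3. Psmb7, the trypsin-like subunit, rose after O3 as well. It stood at 61.2, 63.2, 68.8 and 63.2 CPM after sham, 76.9, 80.9, 90.2 and 81.0 after O3 and 85.0, 92.4, 89.9 and 83.2 after CB-O3 at day 1, and at 69.1, 60.1 and 71.7 CPM after sham, 86.6, 92.7 and 90.8 after O3 and 91.7, 93.1 and 102 after CB-O3 at day 4. The log2 differences were 0.36 (SE 0.08, adjusted p = 0.00235) and 0.43 (SE 0.09, adjusted p = 0.00088) after O3 and 0.45 (SE 0.08, adjusted p = 0.000159) and 0.51 (SE 0.09, adjusted p = 6.22e-05) after CB-O3, and each stayed past the threshold in every alternative fit.

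Among the 4 beta-ring subunits without an active site, none passed the threshold after O3 at either day, 3 rose after CB-O3 at day 1 and all 4 at day 4. Over all genes, 6.81% (day 1) and 11.7% (day 4) rose after O3, and 10.1% and 17.7% after CB-O3. The parts of the proteasome were not tested against each other. Psmb3 had the largest difference of all members after CB-O3 at day 1, a log2 difference of 0.60 (SE 0.11, adjusted p = 0.000495). It stood at 57.7, 61.7, 61.5 and 60.5 CPM after sham, 71.5, 68.6, 67.0 and 77.5 after O3 and 78.0, 86.5, 106 and 94.0 after CB-O3. All CB-O3 libraries exceeded all O3 libraries, which in turn exceeded all sham libraries. Day 4 values of Psmb3 were 66.7, 68.7 and 74.2 CPM after sham, 63.2, 73.8 and 75.9 after O3 and 71.4, 104 and 104 after CB-O3, and CB-O3 replicate 1 lay within the sham range. Psmb1 showed the largest difference of the 4 at day 4, 0.56 (SE 0.11, adjusted p = 0.00049) after CB-O3, and 0.26 (SE 0.10, adjusted p = 0.0662) at day 1. Psmb4 rose by 0.41 (SE 0.11) at day 1 and 0.41 (SE 0.13) at day 4, and Psmb2 by 0.34 (SE 0.11) and 0.33 (SE 0.12). The Psmb2 calls were lost in 6 of 16 alternative fits at day 1 and 8 of 13 at day 4, and the Psmb4 calls in 2 of 16 and 5 of 13.

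Of the 7 alpha-ring genes, 1 rose after O3 at day 1 (Psma5, log2 difference 0.28 (SE 0.09, adjusted p = 0.0423)) and 0 at day 4, while 6 rose after CB-O3 at day 1 and 5 at day 4. The shares of all genes were 6.81% and 11.7% after O3, so that the 1 and 0 were near them, and 10.1% and 17.7% after CB-O3. Psma7 stood at 85.9, 83.8, 91.7 and 83.8 CPM after sham, 86.9, 86.8, 90.4 and 98.7 after O3 and 104, 104, 114 and 114 after CB-O3 at day 1. Sham and O3 overlapped, and all CB-O3 libraries were higher than both. Its log2 difference after CB-O3 was 0.34 (SE 0.09, adjusted p = 0.00719), against 0.07 (SE 0.09, adjusted p = 0.661) after O3. Day 4 values were 93.6, 82.8 and 97.8 CPM after sham, 91.2, 95.7 and 93.0 after O3 and 92.3, 132 and 128 after CB-O3. CB-O3 replicate 1 lay among the sham libraries there, and the difference was 0.36 (SE 0.10, adjusted p = 0.0058). The alpha-ring gene that passed in no comparison was Psma4, at 87.4, 82.4 and 102 CPM after sham and 96.5, 136 and 128 after CB-O3 at day 4 (0.41 (SE 0.17, adjusted p = 0.0579)), and at 0.00 (SE 0.17, adjusted p = 0.998) after O3. Psma3 rose after CB-O3 at day 1, by 0.28 (SE 0.10), and had a log2 difference of 0.11 (SE 0.11, adjusted p = 0.488) at day 4.

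The ATPase ring of the cap, which unfolds substrates, gave 1 gene past the threshold after O3 at day 1, 3 at day 4, and 5 and 4 of 6 after CB-O3. Of all genes, 6.81%, 11.7%, 10.1% and 17.7% rose in that order, and the 1 gene was near its share. Psmc4 stood at 65.6, 59.6, 56.9 and 58.9 CPM after sham, 77.8, 77.5, 72.9 and 77.4 after O3 and 78.5, 77.4, 90.1 and 74.9 after CB-O3 at day 1. Psmc4 at day 4 stood at 58.1, 58.1 and 60.3 CPM after sham, 67.7, 69.8 and 74.9 after O3 and 67.3, 75.4 and 81.2 after CB-O3. The exposed libraries were above all sham libraries of their day in each case. Its log2 differences were 0.34 (SE 0.07, adjusted p = 0.00223) and 0.27 (SE 0.08, adjusted p = 0.0226) after O3 and 0.41 (SE 0.07, adjusted p = 0.000212) and 0.34 (SE 0.08, adjusted p = 0.00226) after CB-O3. Psmc2 had the smallest difference past the threshold after CB-O3 at day 1, 0.18 (SE 0.06, adjusted p = 0.0499), with 81.2, 77.4, 79.6 and 78.4 CPM after sham and 92.7, 84.4, 91.0 and 89.8 after CB-O3. That call was lost in 14 of 16 alternative fits. Psmc1 did not pass in any comparison. Its day 1 levels were 120.2, 117, 141 and 129 CPM after sham, 129, 118, 132 and 138 after O3 and 139.6, 139.7, 167 and 162 after CB-O3, with log2 differences of 0.03 (SE 0.12, adjusted p = 0.911) and 0.26 (SE 0.12, adjusted p = 0.116).

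The 4 base subunits without ATPase activity include Psmd1 and Psmd2, which form the scaffold, and the ubiquitin receptors Psmd4 and Adrm1. Psmd1, Psmd2 and Adrm1 rose after O3 at day 1, and all 4 rose after CB-O3 at day 1. Of all genes, 6.81% and 10.1% rose in these comparisons. Psmd1 stood at 137, 132, 143 and 139 CPM after sham, 176, 169, 170.3 and 201 after O3 and 181, 197, 200.3 and 185 after CB-O3. The log2 differences were 0.38 (SE 0.08, adjusted p = 0.00212) and 0.47 (SE 0.08, adjusted p = 0.00015), and no exposed library overlapped with sham. At day 4 Psmd1 stood at 144, 140.3 and 148 CPM after sham, 149, 156 and 178 after O3 and 152, 201 and 181 after CB-O3, with 0.16 (SE 0.09, adjusted p = 0.226) after O3 and 0.31 (SE 0.09, adjusted p = 0.0105) after CB-O3. Psmd2 passed in all of these comparisons, with 0.34 (SE 0.08) and 0.40 (SE 0.09) after O3 and 0.26 (SE 0.08) and 0.44 (SE 0.09) after CB-O3. Its day 4 levels were 168, 157 and 155 CPM after sham, 204, 211 and 218 after O3 and 214, 239 and 197 after CB-O3, without overlap between sham and the exposed libraries.

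The ubiquitin receptors rose after CB-O3 at day 1 and did not pass the threshold at day 4. Adrm1 stood at 58.9, 60.8, 59.2 and 57.7 CPM after sham, 72.5, 62.4, 67.7 and 77.6 after O3 and 78.1, 68.6, 84.1 and 75.5 after CB-O3 at day 1. Its log2 differences there were 0.24 (SE 0.07, adjusted p = 0.0286) and 0.37 (SE 0.07, adjusted p = 0.000647). After 4 exposures the values were 58.1, 61.5 and 53.4 CPM after sham, 61.8, 64.0 and 63.5 after O3 and 60.5, 57.9 and 59.6 after CB-O3. The O3 libraries lay above sham and the CB-O3 libraries within the sham range, and the CB-O3 difference of 0.04 (SE 0.08, adjusted p = 0.73) was the smallest of all members in that comparison. The change of the CB-O3 difference between the days was -0.33 (SE 0.11, adjusted p = 0.0566). Psmd4 stood at 81.9, 87.1, 87.1 and 83.1 CPM after sham, 89.9, 84.0, 85.0 and 92.9 after O3 and 98.0, 100.01, 111 and 118 after CB-O3 at day 1, with 0.05 (SE 0.10, adjusted p = 0.796) after O3 and 0.33 (SE 0.10, adjusted p = 0.0187) after CB-O3. Psmd4 at day 4 stood at 93.1, 90.4 and 98.9 CPM after sham, 76.7, 85.5 and 94.0 after O3 and 83.5, 120.4 and 113 after CB-O3, with -0.14 (SE 0.11, adjusted p = 0.415) after O3, the lowest value of all members there, and 0.16 (SE 0.11, adjusted p = 0.282) after CB-O3.

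**Figure D3:**
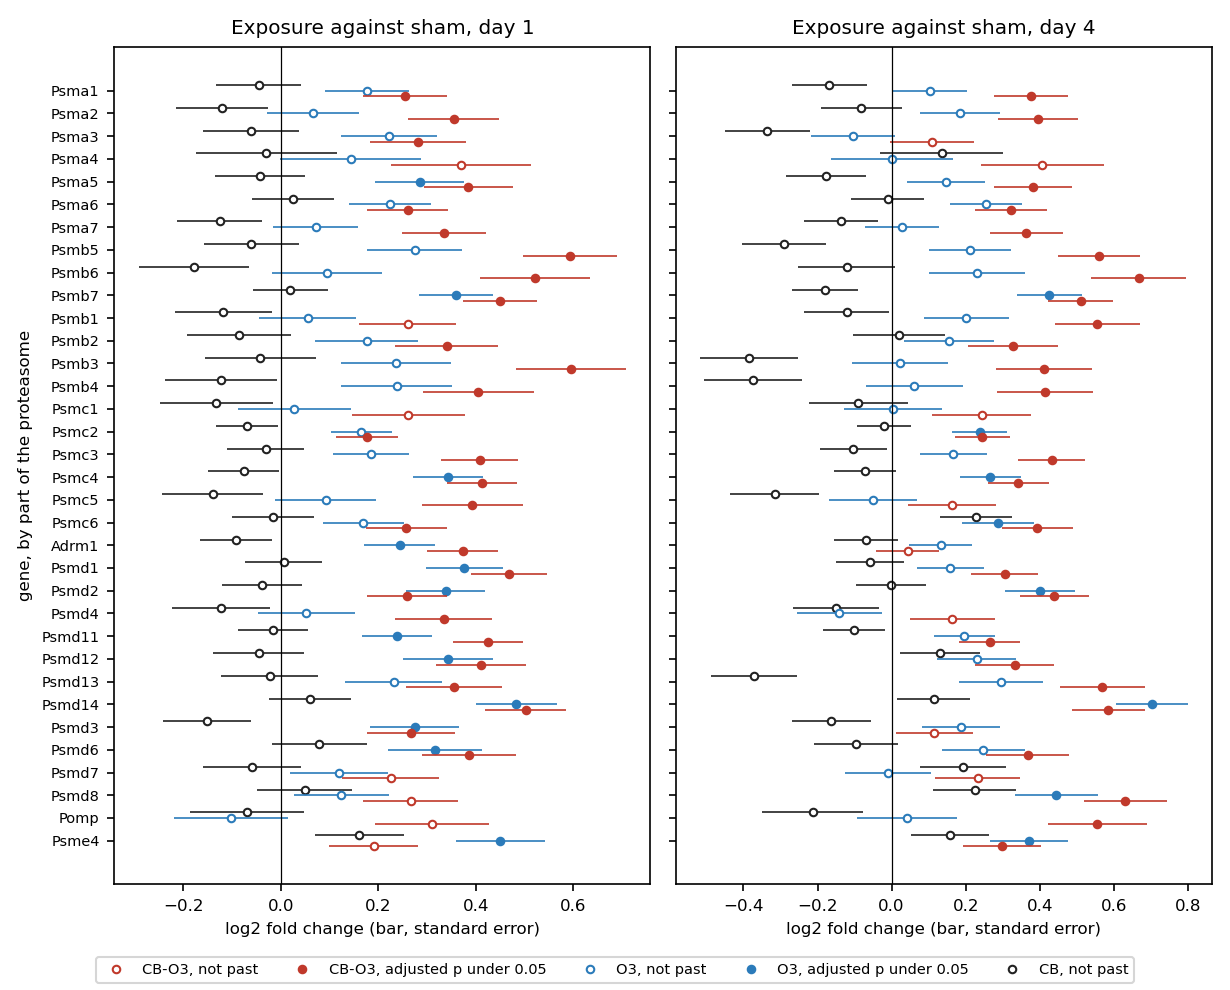
Log2 difference from sham of the same day (horizontal axis, bars are standard errors) for the 34 genes (vertical axis, by part of the proteasome) after CB, O3 and CB-O3, with day 1 on the left and day 4 on the right; filled points passed the threshold. CB-O3 points lie right of 0 for all 34 genes at both days, and Psmd14 lies furthest right after O3 at day 4, at 0.70.

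The lid, which removes ubiquitin chains from substrates, had 5 of 8 genes past the threshold after O3 at day 1 and 2 at day 4, and 6 of 8 after CB-O3 at each day. The shares of all genes that rose were 6.81% and 11.7% after O3, and 10.1% and 17.7% after CB-O3. Psmd14, the deubiquitinating enzyme of the lid, had the largest difference of all members after O3 at both days. It stood at 51.1, 46.1, 50.1 and 49.4 CPM after sham, 70.2, 65.3, 66.0 and 73.8 after O3 and 63.2, 75.2, 78.9 and 61.7 after CB-O3 at day 1. At day 4 the values were 42.4, 38.0 and 44.8 CPM after sham, 66.7, 70.0 and 67.3 after O3 and 65.8, 58.8 and 63.6 after CB-O3. At each day the exposed libraries were above all sham libraries, O3 and CB-O3 overlapped at day 1, and all CB-O3 libraries were below all O3 libraries at day 4. The log2 differences were 0.48 (SE 0.08, adjusted p = 0.000373) and 0.70 (SE 0.10, adjusted p = 7.65e-06) after O3, a 1.63-fold level at day 4, and 0.50 (SE 0.08, adjusted p = 0.000144) and 0.59 (SE 0.10, adjusted p = 4.58e-05) after CB-O3. All 4 stayed past the threshold in every alternative fit. Sham libraries of day 4 were lower than those of day 1 for Psmd14, with a log2 difference of -0.23 (SE 0.09, adjusted p = 0.502) that did not pass the threshold.

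Psmd8, another lid subunit, stood at 80.0, 79.9, 87.2 and 77.2 CPM after sham, 87.6, 83.1, 83.7 and 99.4 after O3 and 96.5, 102, 107 and 84.5 after CB-O3 at day 1, with overlap of both exposed groups with sham and log2 differences of 0.12 (SE 0.10, adjusted p = 0.458) and 0.27 (SE 0.10, adjusted p = 0.0545). At day 4 it stood at 82.7, 71.6 and 82.3 CPM after sham, 97.7, 113 and 112 after O3 and 111, 143 and 113 after CB-O3, without overlap with sham. The log2 differences at day 4 were 0.44 (SE 0.11, adjusted p = 0.00522) and 0.63 (SE 0.11, adjusted p = 9.42e-05), while the change between days was 0.32 (SE 0.15, adjusted p = 0.267) for O3 and 0.36 (SE 0.15, adjusted p = 0.118) for CB-O3. Psmd11 stood at 84.1, 81.6, 87.1 and 84.7 CPM after sham, 105, 91.7, 91.6 and 110.4 after O3 and 109.5, 117, 124 and 103 after CB-O3 at day 1, with 0.24 (SE 0.07, adjusted p = 0.0294) and 0.43 (SE 0.07, adjusted p = 0.000156). Its day 4 levels were 84.3, 88.4 and 81.5 CPM after sham, 91.6, 98.0 and 101 after O3 and 94.3, 104 and 107 after CB-O3, with 0.20 (SE 0.08, adjusted p = 0.0946) after O3 and 0.26 (SE 0.08, adjusted p = 0.0148) after CB-O3. Psmd12 rose by 0.34 (SE 0.09) after O3 at day 1, and by 0.41 (SE 0.09) and 0.33 (SE 0.11) after CB-O3. Psmd7, the inactive partner of Psmd14, did not pass in any comparison with sham, with 0.23 (SE 0.10, adjusted p = 0.116) and 0.23 (SE 0.11, adjusted p = 0.12) after CB-O3.

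Pomp, the chaperone that guides the beta subunits into the core, stood at 96.7, 92.4, 103 and 95.5 CPM after sham, 80.1, 97.6, 89.4 and 93.6 after O3 and 104, 105, 135 and 136 after CB-O3 at day 1. The O3 libraries reached below and into the sham range, with the lowest log2 difference of all members, -0.10 (SE 0.12, adjusted p = 0.643), and the CB-O3 libraries were above sham, at 0.31 (SE 0.12, adjusted p = 0.063). Pomp at day 4 stood at 109, 90.2 and 122 CPM after sham, 96.8, 116 and 118 after O3 and 123, 186 and 164 after CB-O3, with 0.04 (SE 0.13, adjusted p = 0.867) after O3 and 0.56 (SE 0.13, adjusted p = 0.00222) after CB-O3. Psme4, which caps the core without ubiquitin receptors or ATPases, showed the other order. It stood at 92.5, 101, 84.8 and 85.2 CPM after sham, 127, 122, 108 and 139.6 after O3 and 100.3, 117, 103 and 94.2 after CB-O3 at day 1, so that the O3 libraries were above sham and the CB-O3 libraries overlapped with it. Its log2 differences were 0.45 (SE 0.09, adjusted p = 0.00161) after O3 and 0.19 (SE 0.09, adjusted p = 0.149) after CB-O3, the weakest of the CB-O3 comparison by p. Psme4 at day 4 stood at 81.6, 84.8 and 72.0 CPM after sham, 106, 101 and 100.2 after O3 and 114, 91.9 and 87.2 after CB-O3, with 0.37 (SE 0.11, adjusted p = 0.0129) and 0.30 (SE 0.11, adjusted p = 0.0304).

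After carbon black alone, no member passed the threshold at either day. Over all genes, 1.66% passed in either direction at day 1 and 0.208% at day 4. The median log2 difference of the 34 genes was -0.05 at day 1 and -0.10 at day 4. At an unadjusted p under 0.05 there were 0 members at day 1, where 10.2% of all genes passed that cutoff, and 7 at day 4, where 15.2% did. DESeq2 called 0 at each day. The lowest values at day 4 were those of Psmb3, -0.39 (SE 0.13, adjusted p = 0.17), Psmb4, -0.37 (SE 0.13, adjusted p = 0.189), and Psmd13, -0.37 (SE 0.12, adjusted p = 0.14). In CB day 4, Psmb4 stood at 67.5, 83.8 and 106 CPM against 110.1, 108 and 116 after sham, with the lowest value in replicate 1. That replicate also held the highest Psma4 (144, 77.3 and 79.3 CPM in the 3 libraries). Without CB day 4 replicate 3, 3 members were past the threshold and lower than sham, and without replicate 1 there were 0.

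CB-O3 was then compared with O3 of the same day, which asks what the particles added. No gene of the 14887 tested passed the threshold at either day (0%). At an unadjusted p under 0.05 there were 12 members at day 1, where 15.7% of all genes passed, and 14 at day 4, where 20.1% did. The median log2 difference of CB-O3 from O3 over the members was 0.13 at day 1 and 0.21 at day 4. Psmb6 had a log2 difference of 0.43 (SE 0.11, adjusted p = 0.196) at day 1 and 0.44 (SE 0.13, adjusted p = 0.0905) at day 4, with 95% confidence intervals of 0.20 to 0.66 and 0.17 to 0.70. Pomp had 0.41 (SE 0.12, adjusted p = 0.196) and 0.51 (SE 0.13, adjusted p = 0.0754), and Psmb5 0.32 (SE 0.10, adjusted p = 0.196) and 0.35 (SE 0.11, adjusted p = 0.107). The CB-O3 and O3 libraries of Psmb5 and Pomp did not overlap at either day. Of the 34 members, 11 had all CB-O3 libraries above all O3 libraries at day 1 and 7 at day 4. For 0 and 3 members all CB-O3 libraries lay below. The share of all genes without such overlap is not given. The lowest log2 differences were those of Psme4 at day 1, -0.26 (SE 0.09, adjusted p = 0.215), and of Psmd14 at day 4, -0.12 (SE 0.10, adjusted p = 0.511). At day 4 the count depended on a single library, since 15 members passed without CB-O3 replicate 1, and DESeq2 called 3. The 0% of all genes above belongs to the main fit and not to these fits. Their own shares of all genes are not given, so the 15 and 3 cannot be set against them.

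The interaction asks whether the CB-O3 difference exceeds the sum of the CB and O3 differences on the log2 scale. At day 1 no member passed, where 0.222% of all genes were past the threshold and higher, and Psmb6 was nearest to it at 0.60 (SE 0.16, adjusted p = 0.0521). DESeq2 called 2 members, and 9 passed when the fit held the groups of that day alone. Without CB-O3 replicate 1 or without CB-O3 replicate 2 there were 2, and without sham replicate 2 or CB replicate 2 there was 1. At day 4, 4 members passed and were higher, where 0.766% of all genes were. These were Psmb3 at 0.77 (SE 0.18, adjusted p = 0.0424), Psmb4 at 0.73 (SE 0.19, adjusted p = 0.0474), Psmb5 at 0.64 (SE 0.16, adjusted p = 0.0448) and Psmd13 at 0.64 (SE 0.16, adjusted p = 0.0458). Psmd13 stood at 78.5, 81.1 and 78.5 CPM after sham, 47.8, 60.4 and 75.0 after CB, 88.2, 103 and 101 after O3 and 109.8, 139 and 104 after CB-O3 at day 4. The CB libraries lay below and the CB-O3 libraries above all sham libraries. The 4 calls were not firm. Without CB replicate 1, the library that stood apart, 0 members passed, and so it was without CB replicate 2, sham replicate 3, CB-O3 replicate 2 or 3, or any of the O3 replicates. The count was 1 without sham replicate 1, 2 without sham replicate 2, 11 without CB replicate 3 and 14 without CB-O3 replicate 1. It was 0 without the low-count filter and 9 with DESeq2. The 0.222% and 0.766% of all genes belong to the main fit. Shares of all genes in the other fits are not given.

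None of the members passed for a change of the O3, CB-O3 or CB difference between day 1 and day 4, nor for the sham groups, day 4 against day 1. Over all genes, 4.24% passed for O3, 10.2% for CB-O3, 0.094% for CB and 0% for sham. For the CB-O3 change, 1 member passed without sham day 4 replicate 3, without CB-O3 day 1 replicate 2 or without CB-O3 day 4 replicate 1. The largest member change for O3 by size was that of Psma3, -0.33 (SE 0.15, adjusted p = 0.267), with a 95% confidence interval of -0.64 to -0.02.

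**Figure D4:**
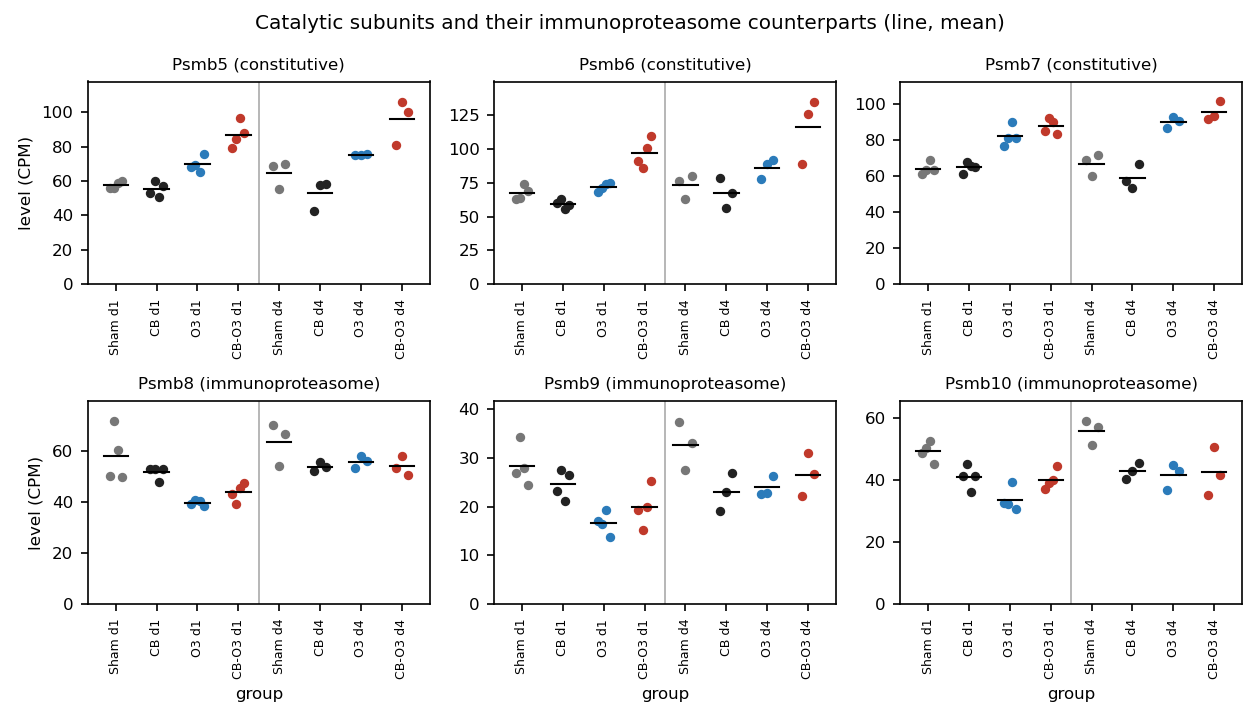
Levels in CPM (vertical axes, starting at 0) of the 3 constitutive catalytic genes (top row) and the immunoproteasome genes that replace them (bottom row) in the 8 groups (horizontal axes); each point is a library and the line is the group mean. Psmb5, Psmb6 and Psmb7 are higher after CB-O3 than after sham at both days, and Psmb8, Psmb9 and Psmb10 are lower after O3 and CB-O3 at day 1.

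The immunoproteasome genes moved the other way at day 1. Psmb8, which replaces Psmb5, stood at 50.1, 71.8, 60.3 and 49.7 CPM after sham, 39.1, 40.7, 40.4 and 38.5 after O3 and 42.9, 39.2, 45.6 and 47.4 after CB-O3. Psmb9, which replaces Psmb6, stood at 26.9, 34.3, 28.1 and 24.4 CPM after sham, 17.0, 16.4, 19.2 and 13.9 after O3 and 19.4, 15.2, 19.9 and 25.4 after CB-O3. Psmb10, which replaces Psmb7, stood at 48.8, 50.4, 52.8 and 45.3 CPM after sham, 32.6, 32.5, 39.3 and 30.7 after O3 and 37.0, 39.1, 40.1 and 44.5 after CB-O3. For all 3, every O3 library lay below every sham library. The share of all genes without overlap in that direction is not given. Past the threshold and lower at day 1 were 4.63% of all genes after O3 and 9.09% after CB-O3. The log2 differences after O3 were -0.54 (SE 0.10, adjusted p = 0.000567) for Psmb8, -0.77 (SE 0.15, adjusted p = 0.00112) for Psmb9 and -0.55 (SE 0.10, adjusted p = 0.000865) for Psmb10. After CB-O3 they were -0.40 (SE 0.10, adjusted p = 0.00467), -0.51 (SE 0.15, adjusted p = 0.0167) and -0.30 (SE 0.10, adjusted p = 0.0419) in the same order, and the call of Psmb10 was lost in 8 of 16 alternative fits. At day 4 only Psmb10 of the 3 was past the threshold and lower, by -0.43 (SE 0.12) after O3 and -0.39 (SE 0.12) after CB-O3. Of all genes, 9.07% and 16.3% fell at day 4. Psmb8 stood at -0.19 (SE 0.11, adjusted p = 0.236) and -0.24 (SE 0.11, adjusted p = 0.0996) there, and Psmb9 at -0.45 (SE 0.17, adjusted p = 0.0556) and -0.30 (SE 0.17, adjusted p = 0.169). Of the PA28 cap genes, Psme1 did not pass in these comparisons (-0.15, 0.05, 0.15 and 0.27 for O3 day 1, O3 day 4, CB-O3 day 1 and CB-O3 day 4), and Psme2 rose after CB-O3 at day 4, by 0.46 (SE 0.14, adjusted p = 0.0107).

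Markers of immune and blood cells moved as well. For the counts below, 4.63% and 9.07% of all genes fell after O3 at day 1 and day 4, and 9.09% and 16.3% after CB-O3. The shares that rose were 6.81% and 11.7% after O3, and 10.1% and 17.7% after CB-O3. The summed level of 6 T and NK cell markers was 43.8 to 68.7 CPM in sham libraries of day 1, 22.5 to 32.4 after O3 and up to 23.9 after CB-O3, with 5 and 6 of the 6 past the threshold and lower. At day 4 it was 47.9 to 51.8 after sham, 23.9 to 30.9 after O3 and 17.1 to 23.3 after CB-O3. There, 5 and 4 of the 6 were past the threshold and lower. The 5 B cell markers summed to 57.2 to 240.0 CPM after sham, 45.8 to 80.5 after O3 and 38.1 to 69.1 after CB-O3 at day 1. Past the threshold and lower were 1 after O3 and 4 after CB-O3 at day 1, and 2 and 5 at day 4. Macrophage markers were past the threshold and higher in 3 of 6 after O3 at day 1, 4 of 6 after O3 at day 4 (median log2 difference 1.17) and 5 of 6 after CB-O3 at day 4 (1.11), with 0 higher and 1 lower after CB-O3 at day 1. Erythrocyte markers were lower in 3 of 5 after O3 and 4 of 5 after CB-O3 at day 4, and 0 of 5 passed at day 1. Of the 9 lung markers, 3 were lower and 0 higher after O3 at day 1, and 3 lower and 1 higher at day 4. After CB-O3, 2 of the lung markers were lower and 1 higher at day 1, and 2 lower and 2 higher at day 4. Those day 4 counts were near the shares of all genes. Cardiac muscle markers were lower in 3 of 4 after O3 at day 4. After O3 at day 1 and after CB-O3, 0 of those 4 passed. Every one of these markers was above 0 in all libraries. Their part in the differences of the immunoproteasome genes and of the 34 members was not tested.

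Outside the core set, 17 of 21 listed assembly factors, regulators and tissue-specific subunits were tested, and the rest were too low or not matched by name. Of the 17, 3 rose after O3 at day 1 and 1 at day 4, and 4 and 6 rose after CB-O3, with none lower. Over all genes tested, 6.81% and 11.7% rose after O3, and 10.1% and 17.7% after CB-O3. The shares that fell were 4.63% and 9.07% after O3, and 9.09% and 16.3% after CB-O3. The 1 of 17 after O3 at day 4 was thus not above the share of all genes. Usp14, a deubiquitinating enzyme bound to the cap, stood at 58.1, 50.2 and 53.8 CPM after sham, 69.1, 74.6 and 68.1 after O3 and 74.1, 72.7 and 76.3 after CB-O3 at day 4. Its log2 differences were 0.29 (SE 0.08, adjusted p = 0.0121) and 0.39 (SE 0.09, adjusted p = 0.0025) after O3 and 0.25 (SE 0.08, adjusted p = 0.0225) and 0.46 (SE 0.09, adjusted p = 0.000254) after CB-O3. Psmg1, a chaperone of alpha-ring assembly, rose after CB-O3 at day 1, by 0.59 (SE 0.15, adjusted p = 0.00531). Psmg2, its partner, rose after CB-O3 at day 4, by 0.58 (SE 0.16, adjusted p = 0.00709), from 17.2, 14.9 and 15.8 CPM after sham to 16.8, 27.3 and 27.6, with replicate 1 inside the sham range. Psmd10, a chaperone of the ATPase ring, rose there by 0.54 (SE 0.12, adjusted p = 0.000655).

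Of 12 genes of ubiquitin activation, shuttling and the p97 segregase, 2 rose after O3 at day 1, 4 at day 4, 5 after CB-O3 at day 1 and 2 at day 4, with 1 lower after CB-O3 at each day. The shares of all genes that rose were 6.81%, 11.7%, 10.1% and 17.7% in that order, and 9.09% and 16.3% fell after CB-O3, so that the 2 of 12 that rose after CB-O3 at day 4 were near the share of all genes. Vcp, which encodes p97 itself, stood at 404, 388, 394 and 357 CPM after sham, 433, 461, 470.2 and 524 after O3 and 455, 485, 469 and 399 after CB-O3 at day 1. It rose by 0.29 (SE 0.08) and 0.34 (SE 0.09) after O3 and by 0.23 (SE 0.08) and 0.28 (SE 0.09) after CB-O3. The CB-O3 calls of Vcp were lost in 10 of 16 alternative fits at day 1 and 4 of 13 at day 4. Rad23b, a shuttle for ubiquitinated proteins, rose by 0.36 (SE 0.08, adjusted p = 0.00646) after O3 and 0.32 (SE 0.08, adjusted p = 0.00773) after CB-O3 at day 1. The lower genes were Ubqln2, another shuttle, at -0.27 (SE 0.07, adjusted p = 0.00593) at day 1, and Sqstm1, a receptor of selective autophagy, at -0.37 (SE 0.10, adjusted p = 0.00419) at day 4.

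Of 8 listed regulators of proteasome transcription, Nfe2l2 rose in all comparisons of O3 and CB-O3 with sham. It stood at 180.3, 183, 185 and 190.2 CPM after sham, 227, 254, 232 and 229 after O3 and 245, 264, 247 and 242 after CB-O3 at day 1, without overlap with sham. Its log2 differences were 0.35 (SE 0.08, adjusted p = 0.00574) and 0.44 (SE 0.10, adjusted p = 0.0014) after O3 and 0.43 (SE 0.08, adjusted p = 0.000549) and 0.48 (SE 0.10, adjusted p = 0.000386) after CB-O3. Nfe2l1, the regulator known for the response to proteasome shortage, did not pass, with -0.12 (SE 0.07, adjusted p = 0.27) and -0.05 (SE 0.08, adjusted p = 0.683) after O3 and -0.14 (SE 0.07, adjusted p = 0.147) and -0.12 (SE 0.08, adjusted p = 0.244) after CB-O3. NFE2L1 and NFE2L2 are known to be controlled largely at the protein level, which was not measured. The products of the small Maf genes pair with both. Maff rose at day 1, by 0.64 (SE 0.13, adjusted p = 0.00162) after O3 and 0.69 (SE 0.13, adjusted p = 0.000465) after CB-O3. Mafk fell at day 4, with -0.53 (SE 0.10, adjusted p = 0.000363) and -0.75 (SE 0.10, adjusted p = 2.68e-06), and so did Mafg, with -0.46 (SE 0.11, adjusted p = 0.00494) and -0.46 (SE 0.12, adjusted p = 0.00292).

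**Figure D5:**
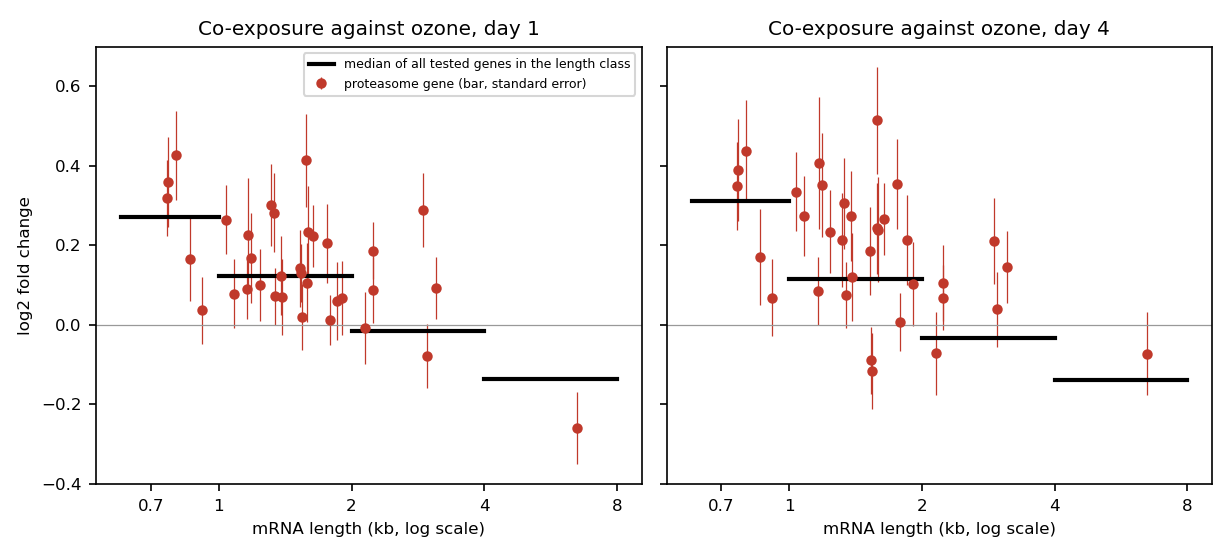
Log2 difference of CB-O3 from O3 (vertical axis) against mRNA length in kilobases (horizontal axis, log scale) at day 1 (left) and day 4 (right); points are the 34 genes with standard errors, and black lines the medians of all genes tested in each length class. At day 1 the all-gene median goes from 0.27 under 1 kb to -0.14 at 4 kb or more, and Psme4, the longest member, lies at -0.26.

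Differences between groups moved with transcript length in several comparisons. In CB-O3 against O3 the median log2 difference of all genes was 0.27 under 1 kb of mRNA (1153 genes), 0.12 at 1 to 2 kb (3552 genes), -0.02 at 2 to 4 kb (6103 genes) and -0.14 at 4 kb or more (3647 genes) at day 1. At day 4 these medians were 0.31, 0.11, -0.03 and -0.14. For the members the medians at day 1 were 0.32 (5 genes), 0.13 (22 genes) and 0.09 (6 genes), with -0.26 for Psme4, the only member of 4 kb or more. At day 4 they were 0.35, 0.24, 0.09 and -0.07. The sham groups, day 4 against day 1, also had higher values for shorter transcripts, with all-gene medians of 0.14, 0.07, -0.02 and -0.09. In CB-O3 against sham, genes of 1 to 2 kb had a median of 0.08 at day 1 and 0.13 at day 4, and the 22 members of that length 0.36 and 0.37. In O3 against sham the slope was opposite at day 1, with all-gene medians of -0.11, -0.05, 0.00 and 0.04, and the 22 members had a median of 0.18. CB against sham at day 4 had all-gene medians of -0.11, -0.08, 0.02 and 0.10, and the members -0.12, -0.11, -0.07 and 0.16. The day 4 interaction had all-gene medians of 0.43, 0.21, -0.04 and -0.23, and the members 0.56, 0.35, 0.13 and -0.23.

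A fit that removes the trend with transcript length, chosen after seeing the data, left 21 members past the threshold and higher after CB-O3 at day 1 and 15 at day 4, where their median log2 difference was 0.22 against 0.37 without it, and raised the counts after O3 to 17 and 10. In this fit the median log2 difference of the members in CB-O3 against O3 was 0.00 at day 1 and 0.08 at day 4, against 0.13 and 0.21 without it. The interaction at day 4 gave 0 members, against 4. The shares of all genes past the threshold in this fit are not given, so its counts cannot be set against them. What moved with length in these libraries was not tested.

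Markers of dividing cells also moved with O3 and CB-O3. The summed level of 7 cycling-cell markers was 123 to 149.5 CPM in sham libraries of day 1, 186 to 379.6 after O3 and 266 to 329 after CB-O3. At day 4 it was 108 to 146 after sham, 542 to 613 after O3 and 694 to 719.7 after CB-O3, with 7 of 7 past the threshold and higher. Of all genes, 11.7% rose after O3 and 17.7% after CB-O3 at that day. Neutrophil markers summed to 127 to 4314 CPM in CB libraries of day 1, against 40.1 to 236 after sham, with 6 of 6 higher, and no member passed the threshold there. Of all genes, 1.66% passed in either direction after CB at day 1. The part of these cells in the members' differences was not tested.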

How the data were processed

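The deposited table holds estimated counts per Ensembl gene, quantified with Salmon 1.1.0 per the labels' protocols. The submitters' processing notes also name mm10, R 3.6.3 and DESeq2, without roles. The counts were rounded here, 17.7% of values not being whole, and 14887 genes passed edgeR's expression filter with 99.9% of counts kept. All 28 libraries entered a fit of group means (R 4.3.3, edgeR 4.0.16, limma 3.58.1) with TMM scaling and the robust quasi-likelihood F test, which had been tested on simulated data. Benjamini-Hochberg adjustment ran over all genes tested in each of 14 comparisons, with 0.05 as the threshold. Symbols and mRNA lengths came from GENCODE M21, and promoter windows from RefSeq (GRCm38.p6). Of 50 other pathway genes listed, 48 were found, and a few listed items are not reported here. The members and lists were chosen with earlier results of these data known. Genes were named by role, as the smallest and largest p among members in the main comparisons, as the extremes of a comparison, and as up to 4 genes of the other lists by p. Other genes named with values were chosen after those were seen. Alternatives covered scaling, filters, the fitted groups, a replicate block, each library left out and the muscle-containing day 1 libraries left out. DESeq2 1.42.0 and transcript length were also used, the latter chosen after seeing the data.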

Additional observations from a re-analysis of the deposited data

Results flagged for a closer look

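In day 1 groups of 4 libraries, each member's level and the members' sum were checked for a library far from the other 3 by Dixon's criterion, which chance meets in about 1 of 20 groups. Of 140 checks, 7 met it. Psma4 had a high value of 84.81 CPM in sham replicate 3 and of 99.21 CPM in O3 replicate 4. Psma5 was low in sham replicate 3, at 44.84 CPM, and Psmc4 low in O3 replicate 3, at 72.92 CPM. Psmc6 was high in CB replicate 2, at 85.64 CPM, and in O3 replicate 4, at 97.25 CPM. The sum of the members was high in O3 replicate 4, at 3511 CPM.

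Differences between conditions that passed edgeR's quasi-likelihood test were the following. The day 4 interaction of CB and O3 had a log2 value of 0.7261 for Psmb4, 0.6398 for Psmb5, 0.6438 for Psmd13, 0.7747 for Psmb3 and 1.097 for Psmg2. From day 1 to day 4, the log2 difference of O3 from sham changed by -0.6141 for Mafk and -0.5855 for Mafg. The difference of CB-O3 from sham changed by -0.8312 for Mafk, 0.4778 for Psmd10, -0.8202 for Maff and -0.7233 for Mafg.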

How the results depend on the processing

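Counts are of members past the threshold. The shares of all genes given above belong to the main fit, and those of the fits below are not given. Without the low-count filter, O3 against sham gave 7 at day 1 and 5 at day 4, and the day 4 interaction 0. Fitting the compared groups alone gave 12 for CB-O3 against sham at day 4, 9 and 0 for the interaction at day 1 and day 4, and 1 for the O3 change between days. DESeq2 gave 3 for CB-O3 against O3 at day 4, and 2 and 9 for the interaction at day 1 and day 4. O3 at day 1 gave 7 without the sham and O3 libraries of that day that held skeletal muscle transcripts. The transcript length correction gave 15 for CB-O3 against sham at day 4, 0 for the day 4 interaction and 1 for the CB-O3 change between days. The replicate numbers were not taken as pairing in the main fit. Deviations from group means had a correlation over 0.1 in 6 of 24 same-numbered pairs at day 1 and 6 of 18 at day 4. Of pairs with different numbers, 10 of 72 and 3 of 36 did. Median correlations were 0.05 and 0.04 for same-numbered pairs, and -0.01 and -0.02 for the others. Whether the numbers mark something shared was not tested. A replicate block gave 1 for CB-O3 against O3 at day 4 and 7 for the day 4 interaction.

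Leaving out 1 library at a time gave 5 to 11 for O3 at day 1, 5 to 8 for O3 at day 4, 18 to 27 for CB-O3 at day 1, 20 to 30 for CB-O3 at day 4 and 0 to 3 for CB at day 4. It gave 0 to 15 for CB-O3 against O3 at day 4, 0 to 2 and 0 to 14 for the interaction at day 1 and day 4, and 0 to 1 for the CB-O3 change.

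Of 165 gene results, some near 0 changed sign. With the length correction, CB-O3 against sham gave -0.0236 for Psme1 at day 1, and -0.0839 for Adrm1 and -0.0096 for Psmd4 at day 4. Psma4 after O3 at day 4 was -0.0057 with median-of-ratios scaling, -0.006 with the compared groups and -0.0053 with DESeq2. Leaving out 1 library at a time, values after O3 at day 4 ran from -0.0714 to 0.0934 for Psma4, from -0.0761 to 0.1484 for Pomp, from -0.0922 to 0.0026 for Nfe2l1 and from -0.0306 to 0.1002 for Psme1. After O3 at day 1 they ran from -0.0094 to 0.083 for Psmc1, and after CB-O3 at day 4 from -0.0123 to 0.0942 for Adrm1 and from -0.0099 to 0.2604 for Psma3. The causes of these shifts were not tested.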
